A study of Mus musculus with 12 samples.

Results

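The genes described here are 9 targets of Wnt signalling that mark the hepatocytes next to the central vein of the liver lobule: Glul, Axin2, Lgr5, Tbx3, Rnf43, Znrf3, Oat, Rhbg and Slc1a2. They were chosen by name, with earlier results of these data known. Every array transcript cluster that carries exactly 1 gene symbol from that list was taken. A transcript cluster is the array's unit for 1 transcribed locus. The rule found 10 clusters for the 9 genes, of 35556 clusters measured in all, of which 21789 carry 1 gene symbol. Glul had 2 clusters (10350753 and 10374453) and every other gene had 1. RefSeq also lists a Glul pseudogene, so the copy that each Glul cluster reads is uncertain.

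Liver was profiled on 12 expression arrays from KK-Ay mice, which carry the lethal yellow agouti allele on the KK background and develop type 2 diabetes, from KK mice without that allele, and from 2 further control samples. The titles form 6 groups of 2 arrays: 1, 6Y, 6K, 16Y, 42Y and 42WKK. The series' design text calls the Y titles T2D and the titles 1, 6K and 42WKK control, whereas the single sample records give 6K as T2D and 42Y as control, so groups are named here by their titles. The methods tie the number 42 to an age in weeks, and what 1, 6 and 16 count is not stated in the sources used here. Agouti (gene a) had 6.78 to 7.06 log2 signal in the 6 Y arrays, against 5.20 to 5.51 in the other 6 arrays, 6K included. No source says whether the 2 arrays of a group came from separate mice, so the p-values measure only the spread between these arrays, and 2 arrays per group limit the precision of every value.

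The sample records name blood as the tissue and the methods name liver. The 7 measured hepatocyte markers had a median of 13.0 to 13.3 log2 signal per array, while the 5 T cell markers had a median of 3.99 to 4.60. The 2 arrays of a group correlated at 0.983 to 0.991 over all clusters, with the lowest value in 42Y. In whole tissue, fewer cells of a type and less RNA per cell cannot be told apart.

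Hepatocytes divide their work along the axis from the portal vein to the central vein. Wnt ligands and R-spondin released by endothelial cells of the central vein stabilise beta-catenin in the neighbouring hepatocytes, which then transcribe the pericentral programme with TCF factors. That programme includes feedback regulators of the pathway itself, such as Axin2, Rnf43 and Znrf3. It also includes genes that handle ammonium, ornithine, glutamate and glutamine, such as Glul, Oat, Rhbg and Slc1a2.

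Promoter sequences from RefSeq (GRCm38.p6), reaching from 250 bases before to 50 bases after the start of the gene, were found for 5 of the 9 genes: Glul, Axin2, Rnf43, Oat and Slc1a2. The windows were searched on both strands for CTTTGAA and CTTTGAT, which are forms of the TCF binding motif and share their first 6 letters. Either motif was present in 8.65% of 32851 promoters of the same length. Among the 5 genes a match was found in Slc1a2 alone, on the minus strand, at position -204 from the start, and it is shown in capitals as its reverse complement ATCAAAG. Slc1a2 is printed for that match, and Axin2 and Rnf43 because they had their lowest values in the same 2 arrays, those of 42Y. The windows of Axin2 and Rnf43 held no match, which says only that these letters are absent from these bases.
Slc1a2, chr2:102706188-102706487, plus strand: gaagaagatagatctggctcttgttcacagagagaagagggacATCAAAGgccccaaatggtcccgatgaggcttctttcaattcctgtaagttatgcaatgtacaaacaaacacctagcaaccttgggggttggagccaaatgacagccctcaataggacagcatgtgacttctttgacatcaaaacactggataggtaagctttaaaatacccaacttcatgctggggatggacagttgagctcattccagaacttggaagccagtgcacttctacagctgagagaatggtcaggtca
Axin2, chr11:108920099-108920398, plus strand: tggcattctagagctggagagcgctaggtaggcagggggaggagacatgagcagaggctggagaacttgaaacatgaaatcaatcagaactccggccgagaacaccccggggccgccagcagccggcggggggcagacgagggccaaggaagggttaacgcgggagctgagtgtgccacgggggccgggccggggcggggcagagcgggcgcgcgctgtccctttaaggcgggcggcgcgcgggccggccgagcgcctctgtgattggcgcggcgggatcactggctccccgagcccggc
Rnf43, chr11:87662837-87663136, plus strand: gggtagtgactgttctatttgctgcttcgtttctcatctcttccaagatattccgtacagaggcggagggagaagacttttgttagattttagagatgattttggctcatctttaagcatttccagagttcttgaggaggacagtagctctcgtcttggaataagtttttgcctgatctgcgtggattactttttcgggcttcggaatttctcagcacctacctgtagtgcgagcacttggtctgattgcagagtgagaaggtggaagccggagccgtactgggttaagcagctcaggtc
Rnf43 has a further RefSeq start on the same strand at chr11:87699647-87699946, whose window also held no match.

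The comparison that the study's own question concerns, KK-Ay against KK at 42 weeks, is 42Y against 42WKK. No member cluster passed the test in it, at an adjusted p under 0.05 in limma with Benjamini-Hochberg adjustment over all clusters, where 1.85% of all clusters did. All 10 member clusters nevertheless had lower values in both 42Y arrays than in both 42WKK arrays, an ordering that 22.7% of all clusters showed. A lower mean alone was found in 47.4% of all clusters. The median log2 fold change of the 10 clusters was -0.33, beside 0.02 over all clusters. Without adjustment, 6 of the 10 clusters had a p under 0.05, all of them lower in 42Y, as did 17.3% of all clusters in either direction. A one-way ANOVA, run on these 4 arrays alone, gave 4 clusters lower in 42Y at an unadjusted p under 0.05 (Axin2, Lgr5, Rnf43 and Oat), where 5.40% of all clusters were lower, and it called none of any kind after adjustment. The 10 clusters are not independent of each other, because they were measured in the same 4 arrays and several of them vary together. A lower mean in all 10 clusters was not particular to this comparison. It was also found in 42Y against 16Y, both Y titles, where 54.6% of all clusters had a lower mean. There 6 of the 10 clusters were lower without overlap, beside 23.7% of all clusters, and the median of the 10 was -0.29.

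**Figure D1:**
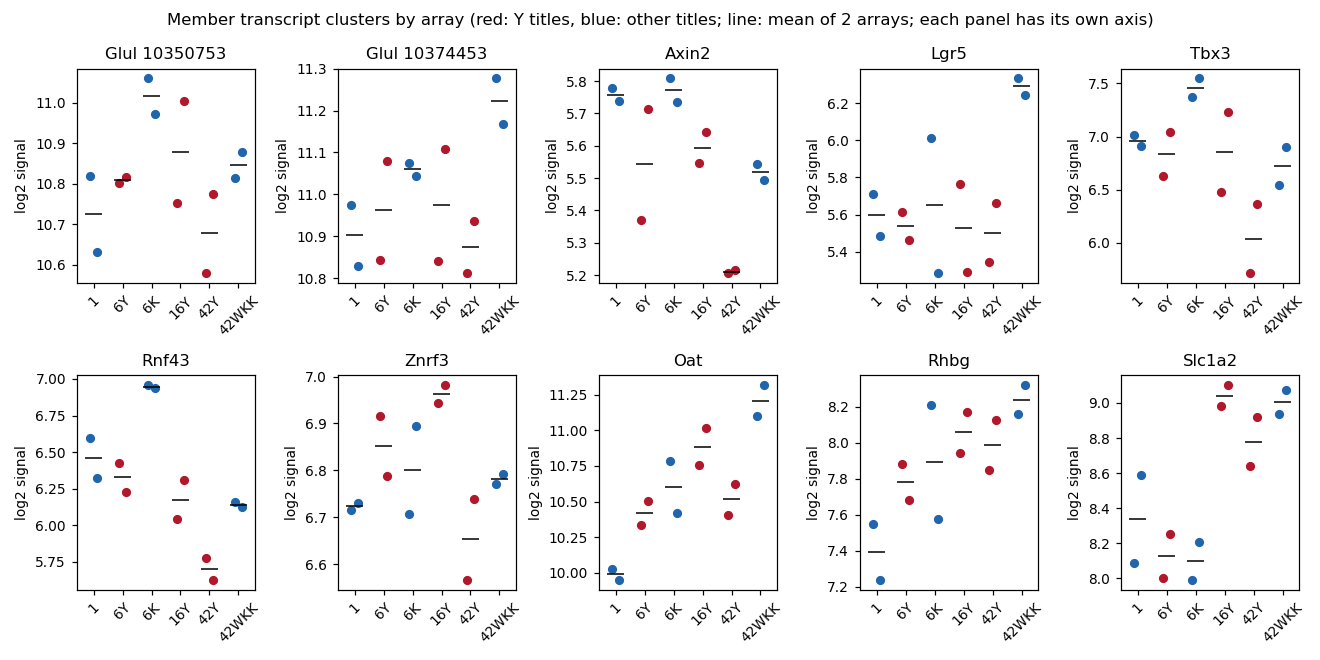
Log2 signal of each of the 10 member clusters in each of the 12 arrays, with 1 panel per cluster, each panel on its own axis, 1 point per array and a line at the mean of the 2 arrays of a title group (Y titles in red, the others in blue). Both 42Y points lie below both 42WKK points in all 10 panels, and in the Axin2, Tbx3 and Rnf43 panels they are also the lowest of the 12.

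Among the feedback regulators, Rnf43 had the widest span of group means, 1.25 on the log2 scale, while arrays of 1 group differed by at most 0.28. Rnf43 encodes a membrane ubiquitin ligase that removes Frizzled receptors from the cell surface and so limits Wnt signalling. Its log2 signal was 6.60 and 6.32 in group 1, 6.43 and 6.23 in 6Y, 6.96 and 6.94 in 6K, 6.04 and 6.31 in 16Y, 5.78 and 5.63 in 42Y, and 6.16 and 6.13 in 42WKK. The 2 arrays of 6K were the highest of the 12 and those of 42Y the lowest, and the 42Y arrays did not overlap with any other group. Rnf43 was lower by 0.44 in 42Y against 42WKK (SE 0.14, adjusted p = 0.156), and by 0.62 in 6Y against 6K (SE 0.14, adjusted p = 0.727), on the log2 scale. Neither difference passed the test.

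Rnf43 was also the only member that passed the test in any of the 9 comparisons, and it did so in 2 of them. In 42Y against group 1, Rnf43 fell by 0.76 on the log2 scale (SE 0.14, 95% interval -1.07 to -0.44, adjusted p = 0.0455 in limma), a linear ratio of 0.592. In 42WKK against 6K it fell by 0.81 (SE 0.14, 95% interval -1.12 to -0.49, adjusted p = 0.0404 in limma), a linear ratio of 0.572. Both adjusted p-values lie close to the threshold, and both calls were lost when the arrays were quantile normalised again or when only the groups compared were used. The call against group 1 was also lost when each array was centred on its median and when any 1 of the 12 arrays was left out (adjusted p 0.0592 to 0.185), and the call against 6K when any array other than the 2 of group 1 was left out (up to 0.223). The log2 fold changes in these alternatives stayed between -0.90 and -0.62 for 42Y against group 1 and between -0.82 and -0.76 for 42WKK against 6K.

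Axin2, the scaffold of the beta-catenin destruction complex and a widely used readout of Wnt signalling, had 5.78 and 5.74 log2 signal in group 1, 5.37 and 5.72 in 6Y, 5.81 and 5.73 in 6K, 5.55 and 5.64 in 16Y, 5.21 and 5.21 in 42Y, and 5.54 and 5.49 in 42WKK. The 42Y arrays were again the lowest of the 12, while the 2 arrays of 6Y differed by 0.34. Axin2 was lower by 0.31 in 42Y against 42WKK (SE 0.12, adjusted p = 0.242) and by 0.55 in 42Y against group 1 (SE 0.12, adjusted p = 0.0701), and neither difference passed the test. Its mean of 5.57 lay a little above the array medians (4.74 to 4.88), at the percentile 61.4 of cluster means. No detection call was used here, so the size of its differences is uncertain.

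Tbx3, a T-box transcription factor, had 7.01 and 6.91 log2 signal in group 1, 6.63 and 7.04 in 6Y, 7.37 and 7.55 in 6K, 6.48 and 7.23 in 16Y, 5.72 and 6.36 in 42Y, and 6.54 and 6.90 in 42WKK. Its 42Y arrays were the lowest of the 12 and its 6K arrays the highest, and arrays of the same group differed by up to 0.75. Tbx3 was lower by 0.68 in 42Y against 42WKK (SE 0.29, adjusted p = 0.273), by 0.62 in 6Y against 6K (SE 0.29, adjusted p = 0.921) and by 0.92 in 42Y against group 1 (SE 0.29, adjusted p = 0.150), and none of these passed the test. The observation that both 42Y arrays were the lowest of all 12 held for 3 of the 10 clusters, Axin2, Tbx3 and Rnf43, and for 3.07% of all clusters. That ordering was singled out after the values were seen.

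Znrf3, the close relative of Rnf43 with the same role at the cell surface, showed no comparable range. It had 6.72 and 6.73 log2 signal in group 1, 6.91 and 6.79 in 6Y, 6.71 and 6.89 in 6K, 6.94 and 6.98 in 16Y, 6.57 and 6.74 in 42Y, and 6.77 and 6.79 in 42WKK. Its group means spanned 0.31, against 1.25 for Rnf43 and a median of 0.39 over clusters with 1 symbol. Znrf3 differed by -0.13 in 42Y against 42WKK (SE 0.11, 95% interval -0.37 to 0.12) and by -0.31 in 42Y against 16Y (SE 0.11, adjusted p = 0.250).

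Lgr5, a receptor for R-spondins, stood apart in 42WKK. It had 5.71 and 5.49 log2 signal in group 1, 5.61 and 5.47 in 6Y, 6.01 and 5.28 in 6K, 5.76 and 5.29 in 16Y, 5.34 and 5.66 in 42Y, and 6.33 and 6.25 in 42WKK. The 42WKK arrays lay above the other 10, which overlapped with each other. Lgr5 was lower by 0.79 in 42Y against 42WKK (SE 0.25, 95% interval -1.35 to -0.22, adjusted p = 0.155) and higher by 0.64 in 42WKK against 6K (SE 0.25, adjusted p = 0.275), without passing the test in either. The 2 arrays of 6K differed by 0.73, which is almost as much as the first of these differences. The mean of Lgr5, 5.68, also lay a little above the array medians (4.74 to 4.88), at the percentile 63.0 of cluster means. Without a detection call, the size of its differences is uncertain.

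**Figure D2:**
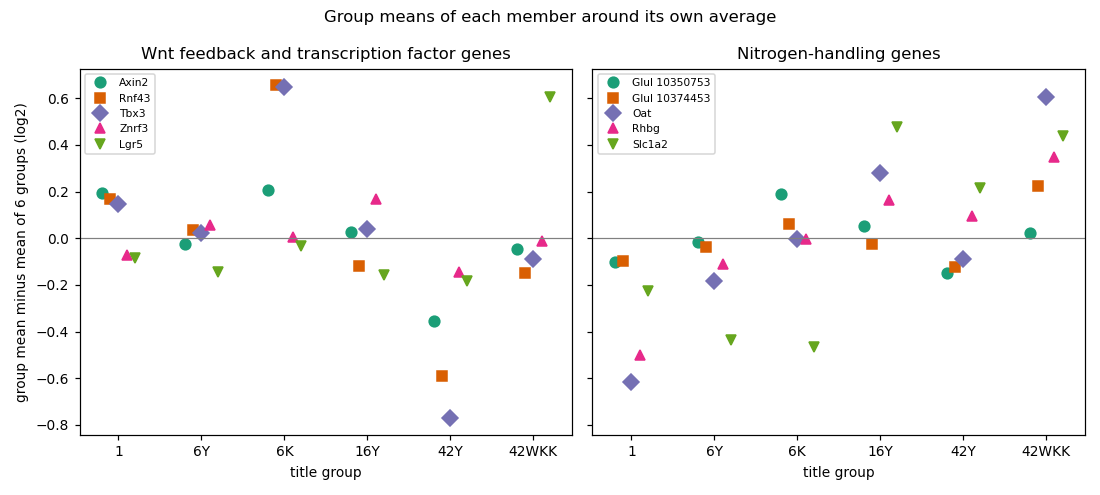
Mean log2 signal of each title group minus the mean of the 6 groups, for the Wnt regulators and transcription factor on the left and the nitrogen-handling genes on the right, with 1 symbol per member cluster, set side by side within a group, and 2 arrays per point. The split into 2 panels was made after the values were seen. The mean of 42Y is the lowest of the 6 for Axin2, Rnf43, Tbx3, Znrf3, Lgr5 and both Glul clusters, while Oat and Rhbg are lowest in group 1 and highest in 42WKK, and Slc1a2 is low in 6Y and 6K.

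Oat, Rhbg and Slc1a2 followed other orders of the groups. Oat, the mitochondrial ornithine aminotransferase, had 10.03 and 9.95 log2 signal in group 1, 10.34 and 10.51 in 6Y, 10.79 and 10.42 in 6K, 10.76 and 11.01 in 16Y, 10.41 and 10.63 in 42Y, and 11.10 and 11.32 in 42WKK. The arrays of group 1 were the lowest of the 12 and those of 42WKK the highest, with no overlap with any other group. Of all members, Oat came closest to the threshold in 42Y against 42WKK, where it was lower by 0.69 (SE 0.16, 95% interval -1.06 to -0.32, adjusted p = 0.0781 in limma), a linear ratio of 0.619. Against group 1 the direction was the opposite, with Oat 0.53 higher in 42Y (SE 0.16, adjusted p = 0.145). In 42WKK against 6K Oat was 0.61 higher (SE 0.16, adjusted p = 0.125). The 42Y arrays lay inside the range of the other groups.

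Slc1a2, the glutamate transporter also called GLT-1, separated the title groups numbered 6 from those with higher numbers. It had 8.09 and 8.59 log2 signal in group 1, 8.0 and 8.25 in 6Y, 7.99 and 8.21 in 6K, 8.98 and 9.10 in 16Y, 8.64 and 8.92 in 42Y, and 8.94 and 9.08 in 42WKK. The arrays of 16Y, 42Y and 42WKK all lay above those of group 1, 6Y and 6K. Slc1a2 was 0.91 higher in 16Y against 6Y (SE 0.19, adjusted p = 0.0511), 0.65 higher in 42Y against 6Y (SE 0.19, adjusted p = 0.129) and 0.91 higher in 42WKK against 6K (SE 0.19, adjusted p = 0.0631), and each missed the threshold. Between 42Y and 42WKK it differed by -0.23 (SE 0.19, 95% interval -0.65 to 0.20).

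Rhbg, an ammonium transporter of the Rhesus family, had 7.55 and 7.24 log2 signal in group 1, 7.88 and 7.68 in 6Y, 8.21 and 7.57 in 6K, 7.94 and 8.17 in 16Y, 7.85 and 8.13 in 42Y, and 8.16 and 8.32 in 42WKK. Group 1 was the lowest, and the other groups overlapped with their neighbours in the order of means. Rhbg was 0.60 higher in 42Y against group 1 (SE 0.22, adjusted p = 0.198) and differed by -0.25 in 42Y against 42WKK (SE 0.22, 95% interval -0.75 to 0.25).

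Glul encodes glutamine synthetase, which in liver is restricted to the hepatocytes around the central vein. Its cluster 10350753 had 10.82 and 10.63 log2 signal in group 1, 10.80 and 10.82 in 6Y, 11.06 and 10.97 in 6K, 10.75 and 11.01 in 16Y, 10.58 and 10.78 in 42Y, and 10.81 and 10.88 in 42WKK. Cluster 10374453 had 10.98 and 10.83 in group 1, 10.84 and 11.08 in 6Y, 11.08 and 11.04 in 6K, 10.84 and 11.11 in 16Y, 10.81 and 10.94 in 42Y, and 11.28 and 11.17 in 42WKK. Both clusters varied little, with group means that spanned 0.34 and 0.35, and both had their lowest mean in 42Y. Neighbouring groups in the order of means overlapped except 42WKK above 6K in the second. In 42Y against 42WKK they differed by -0.17 (SE 0.12, 95% interval -0.45 to 0.11) and -0.35 (SE 0.13, 95% interval -0.65 to -0.05, adjusted p = 0.220). The 2 clusters correlated at 0.63 over the 12 arrays.

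**Figure D3:**
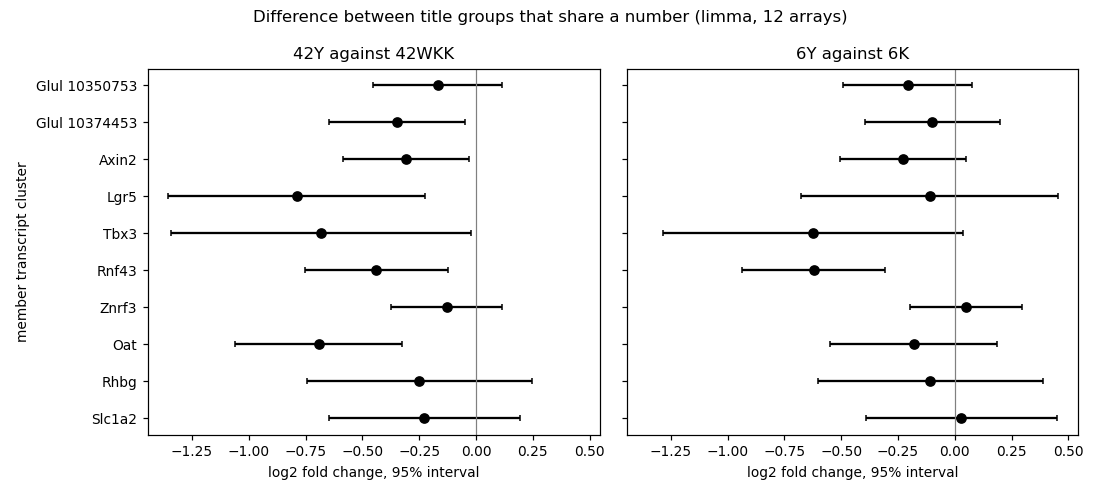
Log2 fold change of each member cluster with its 95% interval from limma, for 42Y against 42WKK on the left and 6Y against 6K on the right, with negative values lower in the Y title. All 10 points are negative on the left, from -0.79 for Lgr5 to -0.13 for Znrf3, and on the right the Rnf43 interval alone excludes 0.

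In 6Y against 6K no member passed the test, where 0.00281% of all clusters did. Rnf43 alone had an unadjusted p under 0.05, as did 5.28% of all clusters. The 2 arrays of 6Y lay below both 6K arrays for 4 member clusters (Rnf43, Tbx3, Axin2 and Glul 10350753), and for 17.8% of all clusters. Axin2 differed by -0.23 (SE 0.12, adjusted p = 0.921) and Glul 10350753 by -0.21 (SE 0.12, adjusted p = 0.921). All 6 endothelial, all 5 Kupffer and all 4 dividing cell markers had a higher mean in 6Y. Their list medians were 0.16, 0.38 and 0.15, and none was called. Of the 6 stellate markers 2 had a lower mean, and 49.9% of all clusters did. The part of these cell types in the members' values was not tested.

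Whether the difference between Y and K titles itself differed between the numbers 42 and 6 was tested as an interaction. No member passed, where 0.143% of all clusters did, and none had an unadjusted p under 0.05, where 13.2% did. The interaction was -0.51 for Oat (SE 0.23, 95% interval -1.03 to 0.01), -0.68 for Lgr5 (SE 0.35, 95% interval -1.48 to 0.12) and 0.18 for Rnf43 (SE 0.20, 95% interval -0.26 to 0.63). The larger differences of Oat and Lgr5 at 42 were therefore not shown to differ from those at 6.

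Over all 3 Y groups against the 3 others, no member passed, beside 0.208% of all clusters, and 3 had an unadjusted p under 0.05, beside 12.3%. These were Rnf43, lower by 0.45 in the Y titles (SE 0.08, adjusted p = 0.0829), Tbx3, lower by 0.47 (SE 0.17, adjusted p = 0.307), and Axin2, lower by 0.23 (SE 0.07, adjusted p = 0.242). The arrays of the Y titles overlapped with the others for all 3 genes. All 6 endothelial, all 5 Kupffer, all 4 neutrophil and all 4 dividing cell markers had a higher mean in the Y titles. Their list medians were 0.14, 0.40, 0.31 and 0.22, and none was called. Of the 6 stellate markers 3 had a lower mean, as did 49.8% of all clusters. The part of these cell types in the members' values was not tested.

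Within the Y titles, no member passed in 16Y against 6Y (1.78% of all clusters did), in 42Y against 16Y (0.399%) or in 42Y against 6Y (1.83%). At an unadjusted p under 0.05 there were 2 members in the first of these (Slc1a2 and Oat, both higher, beside 18.1% of all clusters), 5 in the second (beside 13.9%) and 4 in the third (beside 16.0%). Oat was 0.46 higher in 16Y against 6Y (SE 0.16, adjusted p = 0.179). In 42Y against 16Y, Tbx3 was lower by 0.81, Rnf43 by 0.47, Axin2 by 0.38, Oat by 0.37 and Znrf3 by 0.31, with adjusted p-values of 0.180 to 0.359. In 42Y against 6Y, Rnf43 was lower by 0.63 (SE 0.14, adjusted p = 0.0664), Tbx3 by 0.79 (SE 0.29, adjusted p = 0.224) and Axin2 by 0.33 (SE 0.12, adjusted p = 0.224). In 16Y against 6Y 4 of the 6 endothelial markers fell (Kdr, Lyve1, Clec4g and Cdh5), and the list's array medians were 7.14 and 7.36 log2 signal in 16Y, against 7.99 and 8.35 in 6Y. Each of these 4 calls held with 2 to 4 of the 12 arrays left out in turn, and none with only the groups compared. All 6 stellate and all 5 Kupffer markers also had a lower mean in 16Y against 6Y, with list medians of -0.54 and -0.20 and none called. A lower mean was found there in 43.9% of all clusters. In 42Y against 6Y all 6 endothelial, all 6 stellate, all 5 Kupffer and all 4 dividing cell markers had a lower mean in 42Y. Their list medians were -0.53, -0.52, -0.47 and -0.52, and 49.6% of all clusters had a lower mean. Of these markers 1 was called, the collagen gene Col1a1 of the stellate list, which fell by 0.86 (SE 0.16, adjusted p = 0.0408 in limma). That call was lost with only the groups compared (adjusted p = 0.335) and in most fits with 1 array left out. The part of these cell types in the members' values was not tested. Comparisons that use 42Y share its arrays, so they do not count as separate evidence.

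In 42Y against group 1, Rnf43 was the 1 member called, beside 1.25% of all clusters, and 6 members had an unadjusted p under 0.05, beside 18.4%. Rnf43, Axin2 and Tbx3 were lower in 42Y and Oat, Rhbg and Slc1a2 higher, with Slc1a2 0.44 higher (SE 0.19, adjusted p = 0.254). The endothelial marker list had array medians of 7.74 and 7.54 log2 signal in 42Y, against 7.04 and 6.85 in group 1, with all 6 markers higher in 42Y by their means, and the Kupffer cell list 7.64 and 7.05 in 42Y, against 6.30 and 6.87 in group 1, with all 5 higher. No gene of either list was called in this comparison. At an unadjusted p under 0.05, 5 of the 6 endothelial and 3 of the 5 Kupffer markers were higher, beside 8.70% of all clusters. All 6 stellate markers had a lower mean in 42Y, as did 55.5% of all clusters, with a list median of -0.13 and none called. The part of these cell types in the members' values was not tested.

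In 42WKK against 6K, Rnf43 was again the 1 member called, beside 1.01% of all clusters, and 5 members had an unadjusted p under 0.05, beside 15.0%. Tbx3 was lower by 0.73 in 42WKK (SE 0.29, adjusted p = 0.284), while Slc1a2, Oat and Lgr5 were higher, with the values given above. The endothelial list had array medians of 7.77 and 7.72 in 42WKK, against 7.89 and 8.12 in 6K, with all 6 markers lower by their means and none called. All 4 dividing cell and all 5 Kupffer markers were lower as well, with list medians of -0.48 and -0.21 and none called. A lower mean was found there in 53.4% of all clusters. The part of these cell types in the members' values was not tested.

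Across the 12 arrays the members fell into pairs that moved alike, which is given as a description, since the arrays share their groups and their normalisation. Oat and Rhbg correlated at 0.89, Axin2 and Tbx3 at 0.84, Tbx3 and Rnf43 at 0.83, Glul 10350753 and Tbx3 at 0.80, Axin2 and Rnf43 at 0.80, and Glul 10350753 and Rnf43 at 0.66. Rnf43 and Slc1a2 ran in opposite directions, at -0.68. Among 7667 genes compared over the 12 arrays, the 5 most like Axin2 by Pearson correlation were Rreb1 (0.93), Nav2 (0.91), Znfx1 (0.91), Prelp (0.90) and Tfcp2 (0.89). The 5 most like the Glul cluster 10374453 were Gtf2e1 (0.91), Zfp938 (0.86), Dusp3 (0.84), Bet1 (0.83) and Sntb1 (0.83). Whether that cluster reads Glul itself or its pseudogene is uncertain.

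**Figure D4:**
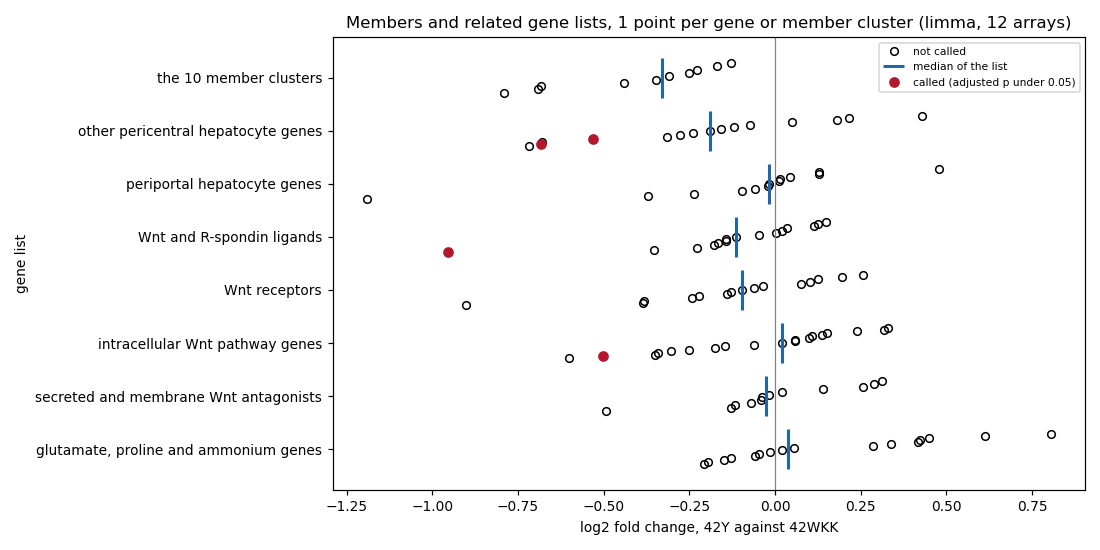
Log2 fold change in 42Y against 42WKK, with 1 point per gene or member cluster, for the 10 member clusters and 7 lists of related genes, where filled red points passed the test and blue bars mark each list's median. The member clusters have the lowest median, -0.33, the other pericentral genes a median of -0.19, and the periportal genes a median of -0.02.

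Other genes of the pericentral programme were compared from a separate list, of which 15 of 16 genes were measured. In 42Y against 42WKK 2 of the 15 fell and none rose, 11 had a lower mean in 42Y and 4 a higher one, and the list median was -0.19. Of all clusters 1.85% were called in either direction, and 47.4% had a lower mean. Rgn, which encodes the calcium-binding protein regucalcin, had 11.34 to 11.50 log2 signal in 42Y, against 12.07 to 12.13 in 42WKK, and fell by 0.68 (SE 0.12, adjusted p = 0.0330 in limma). Gulo, the last enzyme of vitamin C synthesis in mice, had 10.81 to 10.83 in 42Y, against 11.27 to 11.44 in 42WKK, and fell by 0.53 (SE 0.10, adjusted p = 0.0436). For Rgn, as for Oat, the 42WKK arrays were the highest of the 12, whereas for Gulo the 42Y arrays were the lowest. The lower values of Gulo were not particular to 42Y. All 6 Y arrays lay below the other 6, as they did for 0.157% of all clusters. Over the Y titles Gulo was lower by 0.33 (SE 0.06, adjusted p = 0.0864 in limma) and did not pass the test. The call of Rgn held with 2 of the 12 arrays left out in turn and that of Gulo with 0 (adjusted p up to 0.198 and 0.248), and both were lost with only the groups compared. The vasopressin receptor gene Avpr1a differed by -0.72 (adjusted p = 0.116), and the Wnt feedback genes Notum and Nkd1 by -0.19 (adjusted p = 0.650) and -0.07 (adjusted p = 0.764). Cyp2e1, an abundant pericentral cytochrome P450, differed by -0.16 (adjusted p = 0.386). The genes with a higher mean were Ahr, the aryl hydrocarbon receptor gene, with 0.43 (adjusted p = 0.161) and both 42Y arrays above both 42WKK arrays, Ccnd1 with 0.22, Cyp1a2 with 0.18 and Cldn2 with 0.05. Of 13 periportal genes measured, none passed, and 7 had a lower mean in 42Y, the largest difference being -1.19 for Etnppl (adjusted p = 0.0998).

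Of the upstream pathway, 15 Wnt and R-spondin ligands were measured and 1 was called, lower in 42Y, in 42Y against 42WKK. Wnt5a, a ligand known mainly for signalling without beta-catenin, had 3.96 to 4.21 log2 signal in 42Y, against 5.00 to 5.07 in 42WKK, and the fitted difference was -0.95 (SE 0.16, adjusted p = 0.0297). Its 42Y values lay below the median of all clusters on every array (4.74 to 4.88), and no detection call was used here, so the size of this difference is uncertain. The call held with 6 of the 12 arrays left out in turn. With only the groups compared, the Wnt5a call was lost (adjusted p = 0.181 in limma). Rspo3, the R-spondin of the central vein endothelium, differed by -0.35 (adjusted p = 0.334), and Wnt2 and Wnt9b, the ligands of liver endothelium, by -0.11 (adjusted p = 0.820) and 0.12 (adjusted p = 0.535). None of 15 receptor genes passed, among them Fzd7, with -0.90 (adjusted p = 0.230), and the co-receptor Lrp5, with -0.38 (adjusted p = 0.109). Of the 15 receptor genes 10 had a lower mean in 42Y, beside 47.4% of all clusters, and their median log2 fold change was -0.10.

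Of 19 intracellular pathway genes, Btrc alone fell in 42Y against 42WKK. Btrc encodes the F-box protein that marks phosphorylated beta-catenin for degradation. It had 6.63 to 6.72 log2 signal in 42Y, against 7.18 in both 42WKK arrays, and fell by 0.50 (SE 0.09, adjusted p = 0.0369). It also fell by 0.51 in 42Y against 6Y (SE 0.09, adjusted p = 0.0331). Both calls of Btrc were lost whichever of the 12 arrays was left out. Ctnnb1, which encodes beta-catenin, differed by -0.06 (adjusted p = 0.821), and the TCF gene Tcf7l1 by -0.60 (adjusted p = 0.0676). None of 12 antagonists passed, with values from -0.49 for Dkk4 (adjusted p = 0.347) to 0.31 for Dkk2 (adjusted p = 0.517). Of 16 measured genes of glutamate, proline and ammonium handling none passed, and the list median was 0.04, with the glutamine transporters Slc38a3 at 0.45 (adjusted p = 0.0571) and Slc38a2 at 0.81 (adjusted p = 0.117).

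No marker of hepatocytes or of endothelial, stellate, Kupffer or other cell types was called in 42Y against 42WKK. Of the 7 hepatocyte markers 6 had a lower mean in 42Y, with a median of -0.14, and both 42Y arrays lay below both 42WKK arrays for Serpinc1, with -0.23 (adjusted p = 0.225), and Ttr, with -0.20 (adjusted p = 0.285), among others. The array medians of the endothelial list were 7.74 and 7.54 log2 signal in 42Y, against 7.77 and 7.72 in 42WKK, and those of the Kupffer cell list 7.64 and 7.05 in 42Y, against 6.98 and 7.01 in 42WKK. Both 42Y arrays lay beyond both 42WKK arrays for the stellate cell gene Lrat, with -1.16 (adjusted p = 0.161), and the neutrophil gene S100a9, with 1.20 (adjusted p = 0.0856). The stellate list had a median of -0.13, with 5 of 6 markers lower, and the neutrophil list 0.64, with 1 of 4 lower. The part of these cells in the members' values was not tested.

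Ccnd1, which encodes cyclin D1 and was listed with the pericentral genes, fell by 1.74 in 42Y against 6Y (SE 0.28, adjusted p = 0.0258), as did Cdh1 of the periportal list by 0.90 (SE 0.15, adjusted p = 0.0258). The call of Ccnd1 held with 9 and that of Cdh1 with 6 of the 12 arrays left out in turn, and neither with only the groups compared. Ccnd1 had 5.43 to 6.22 log2 signal in group 1, 7.50 to 8.11 in 6Y, 7.35 to 7.56 in 6K, 5.89 to 5.93 in 16Y, 5.85 to 6.28 in 42Y and 5.72 to 5.98 in 42WKK. It was high in both groups numbered 6.

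The 42Y arrays differed from the other 10 in genes of the circadian clock, which were looked at after the values were known. The clock gene Arntl had 5.62 to 5.67 log2 signal in 42Y, against 7.30 to 7.74 in the other 10 arrays, and the clock output gene Dbp had 7.81 to 9.01 in 42Y, against 5.62 to 6.26 in the others. The sources used here do not give the time of day at which tissue was taken, and its part in the members' values in 42Y was not tested.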

How the data were processed

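The authors hybridised liver RNA to Affymetrix arrays and deposited 1 log2 signal per transcript cluster and array, made with Affymetrix Expression Console and its RMA-sketch algorithm. RMA equalises the distributions of the arrays, so a shift common to most genes is removed. No source used here names the genome build of the clusters, and no cluster coordinates are printed. By the platform annotation 21789 clusters had 1 gene symbol, 1621 several and 12146 none, and 21698 symbols were matched to RefSeq by gene identifier.

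The deposited log2 values were fitted in limma 3.58.1 (R 4.3.3) with lmFit and eBayes over 12 arrays, with 6 group means, 9 contrasts, no filter and Benjamini-Hochberg adjustment over all 35556 clusters. For other genes the 1-symbol cluster with the highest mean was used. Named were genes called in 42Y against 42WKK, 6Y against 6K or 42Y against 6Y, and up to 4 per list that differed most in the first of these. Other named genes were added after their values were seen. Members and lists were chosen with earlier results of these data known. The fit was tested on simulated data, and 21 alternatives were run.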

Additional observations from a re-analysis of the deposited data

How the results depend on the processing

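Fold changes and calls were recomputed under up to 21 alternative settings. All 90 log2 fold changes of the 10 clusters in 9 comparisons were computed in each: 28 of them changed sign in at least 1 alternative (60 of 1712 alternative values), the largest of these being 0.18 in size in the analysis as reported. The 42 fold changes that were followed individually were chosen after their values were seen, mostly as the larger ones, and 0 of these 42 changed sign, which that choice in part ensures. All clusters tested stayed lower in 42Y against 42WKK under every alternative, but most alternatives leave these 4 arrays' values unchanged.

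The number of member clusters called in 42Y against 42WKK was 0 as reported. It was 2 (Rnf43 and Oat) with clusters of mean log2 under 6 removed, which leaves 11788 clusters and drops Axin2 and Lgr5. It was 1 (Oat) with a variance trend, 1 (Oat) over clusters with 1 gene symbol, and 4 by one-way ANOVA on the 4 arrays, unadjusted. The same settings called 1721 of 11788, 1113 of 35556, 1000 of 21789 and 3817 of 35556 clusters in all. In 16Y against 6Y the member count was 1 (Slc1a2) under quantile normalization, the filter, the trend and 1 symbol. These settings called 587, 2011, 1349 and 1179 clusters in all. In 42Y against 6Y the member count was 2 with the filter (Rnf43 and Slc1a2) and 1 with the trend or 1 symbol (Rnf43). There 1329, 978 and 1208 clusters were called in all. In Y against other arrays the member count was 1 (Rnf43) with the filter, the trend or 1 symbol. There 548, 212 and 293 clusters were called in all. In 42Y against 1, the 1 member call became 0 under quantile normalization, median centring, the replicate block and only the groups compared. It became 2 with the filter or 1 symbol, where 1631 and 1042 clusters were called in all. In 42WKK against 6K, the 1 member call became 0 under quantile normalization, the replicate block and only the groups compared. It became 3 with the filter and 2 with the trend or 1 symbol, where 1456, 845 and 648 clusters were called in all. With 1 array left out, the counts were 0 to 0 in 42Y against 1 and 0 to 2 in 42WKK against 6K. A filter or the 1 symbol limit adjusts p over fewer clusters and also refits the spread on those clusters. The cause of the changes in these counts was not tested. The calls over all clusters moved too. In 42Y against 42WKK they were 659 as reported, 52 and 81 without 42WKK array A or B, and 0 with only the groups compared. In 16Y against 6Y they were 634 as reported and 8 without either 16Y array, and in 42Y against 1 they were 446 as reported and 23 and 43 without an array of group 1, with 0 in both with only the groups compared.

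Same-numbered arrays of 6K, 6Y, 16Y and 42Y deviated from their group means with correlations of -0.04 to 0.05, so the numbers were not taken to pair the samples. With the replicate block, 0 members were called in any comparison. Where a group is left with 1 array, that array is assumed to vary like the others.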

Other observations

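Genes of the Wnt pathway outside the members passed the test in comparisons other than 42Y against 42WKK, and they are named here after their values were seen. In 42Y against group 1, 3 of the 19 intracellular pathway genes fell and 1 rose, where 1.25% of all clusters were called in either direction. The TCF genes Tcf7l2 and Tcf7l1 fell by 1.11 (SE 0.11, adjusted p = 0.00795 in limma) and 0.87 (SE 0.13, adjusted p = 0.0274), and Bcl9l, a co-activator of beta-catenin, by 0.85 (SE 0.16, adjusted p = 0.0498). Tnks2, a tankyrase that marks axin for degradation, rose by 0.60 (SE 0.11, adjusted p = 0.0449), and the R-spondin receptor gene Lgr4 by 0.51 (SE 0.09, adjusted p = 0.0429). Lgr4 had 8.19 to 8.21 log2 signal in 42Y, against 7.66 to 7.73 in group 1, and 8.18 to 8.47 in the other groups. In the same comparison the nuclear receptor gene Nr1i3 of the pericentral list fell by 1.41 (SE 0.27, adjusted p = 0.0489), and the aspartate aminotransferase gene Got1 rose by 0.97 (SE 0.16, adjusted p = 0.0348). In 42WKK against 6K the receptor gene Fzd6 fell by 1.10 (SE 0.14, adjusted p = 0.0178), the largest difference among the 15 receptors. In 16Y against 6Y the pericentral claudin gene Cldn2 fell by 1.33 (SE 0.20, adjusted p = 0.0307), in the same comparison in which Ccnd1 fell by 1.89 (SE 0.28, adjusted p = 0.0307). All these calls were lost with only the groups compared. With the 12 arrays left out in turn, the call held 11 times for Tcf7l2, 9 for Fzd6, 8 for Tcf7l1, 6 for Ccnd1 and 4 for Cldn2, and 0 to 2 times for Bcl9l, Tnks2, Lgr4, Nr1i3 and Got1.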
